A study of Mus musculus with 31 samples.

Results

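The total RNA level of each autosomal gene was compared between the reciprocal hybrids of the mouse strains C57BL/6 (B6) and JF1 in cortex of newborn mice (P0). The BJ1 cross has a B6 mother and a JF1 father, and the JB6 cross has a JF1 mother and a B6 father, so both carry the same autosomal genomes and differ in which parent gave each. No genotype other than the cross and no treatment was given for either group. There were 4 BJ1 and 3 JB6 libraries at P0, of 31 in the series. BJ1 replicate 2 was labelled male and the other 6 female. The series also holds 3 libraries per cross at the embryonic stage E13.5, in which BJ1 replicate 1 was labelled male, and libraries from cells differentiated in culture, which were not used here. The labels name the tissue Ctx at P0 and DT at E13.5, so the dissections may differ. The labels do not say whether libraries came from separate animals, and the p-values therefore measure the spread between these samples, which may be technical.

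Genomic imprinting silences the maternal or the paternal copy of a gene according to marks set in the germ line, and many imprinted genes are active in the developing brain. Reciprocal crosses are the usual way to tell a parental effect from a strain effect on an allele. An imprinted gene read from the paternal copy is read from JF1 in BJ1 and from B6 in JB6, so for such a gene the direction of the cross and the strain of the expressed allele cannot be told apart. The mothers also differ, in egg, uterus, care and mitochondrial genome, and these cannot be told apart from the cross either.

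The values were counts of sense-strand read bases at sites that differ between the strains, here summed over both alleles. Because genes hold different numbers of such sites, levels were compared between libraries and not between genes. Levels are given as CPM, here read bases scaled to the autosomal total of each library, and differences as the log2 of BJ1 over JB6 ± standard error. Of 16120 features, 15494 were autosomal and 10402 had a mean of at least 20 read bases and were tested. Depth was 5568218 to 7815581 read bases per library, and the first principal component, with 37.1% of the variance, separated the crosses. Cortical neuron markers were read in every P0 library, with Tbr1 at 150.5 to 187 and Bcl11b at 58.3 to 74.5.

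A gene was called when the adjusted p of edgeR's quasi-likelihood test with Benjamini-Hochberg adjustment was below 0.05. At P0, 497 genes were called, 4.78% of those tested. Of these, 336 genes (3.23%) were higher in BJ1 and 161 (1.55%) were higher in JB6. Most differences were small: the median log2 difference was 0.42 among genes higher in BJ1 and -0.57 among those higher in JB6, and 32 genes passed 1 in size. Over all genes tested the median was -0.01. The groups did not overlap in 492 of the 497, compared with 19.6% of all genes tested. The same libraries gave the calls, so this separation follows largely from the calling.

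The number of calls rested on single libraries. Without BJ1 replicate 2, the male library, 22 genes were called, and without BJ1 replicate 3 there were 44. All 497 genes kept their direction in both of these fits, with a median size of 0.41 and 0.42 compared with 0.44 in all libraries. Their direction was nearly fixed in advance, because groups without overlap in 492 of the genes keep their order when 1 library is left out. In 7 fits that each left out 1 library, 20 genes were called every time. They were Egr1, Flt1, Ndn, Arrdc3, Fat1, Slc7a5, Slc7a1, Reln, Fasn, Tet3, Spred2, Pcdhgc3, Ndst1 and 2310022B05Rik, higher in BJ1, and A230057D06Rik, A930011O12Rik, Mirg, Ipw, Fkbp14 and Gja1, higher in JB6.

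**Figure D1:**
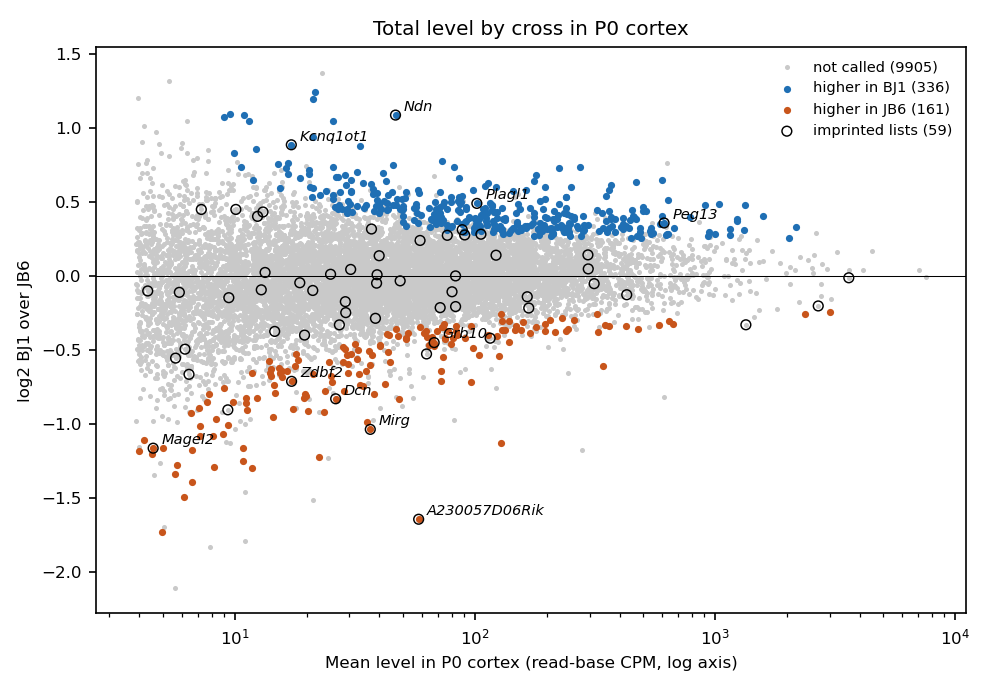
Each point is an autosomal gene, with its mean level over the 7 P0 libraries (read-base CPM, log axis) against its log2 difference of BJ1 over JB6. Blue marks the 336 genes called higher in BJ1, orange the 161 called higher in JB6, grey the 9905 not called, and circles the 59 genes on the lists of imprinted genes. Called imprinted genes are named. A230057D06Rik, at -1.64, and Ndn, at 1.09, are the lowest and the highest of the circled genes.

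Among imprinted genes, calls went in both directions and single members differed strongly. Of 49 listed maternally expressed genes, 44 had a row and 29 were tested. By edgeR none was called higher in BJ1 (7 at an unadjusted p below 0.05, 0 by DESeq2 and 0 by limma-voom) and 3 were called higher in JB6, with a median log2 difference of -0.05. Of 43 listed paternally expressed genes, 38 had a row and 30 were tested. There, 4 were called higher in BJ1 and 3 higher in JB6, with a median of -0.10. Together 10 of 59 were called (16.9%, against 4.78% of all genes tested), and the groups did not overlap in 19 of 59 (32.2%, against 19.6%). Without BJ1 replicate 2, Ndn, A230057D06Rik and Mirg alone of these 10 were called. The calls lay mostly with genes read almost wholly from the listed allele: 8 of the 24 genes with at least 90% of their read bases from that allele in both crosses were called, and 2 of the other 35. Of those 8, the level was higher in the cross with the JF1 allele expressed in 5 (Ndn, Kcnq1ot1, Plagl1, Peg13 and Mirg) and in the cross with the B6 allele expressed in 3 (A230057D06Rik, Magel2 and Zdbf2). Over all 24 the split was 12 and 12, whether called or not.

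The largest differences among the listed imprinted genes lay in the imprinted region of chromosome 7 that is lost in Prader-Willi syndrome, where neighbouring paternally expressed genes differed in opposite directions. Ndn encodes necdin, a growth-suppressing protein of postmitotic neurons. Its level was 65.8, 61.6, 64.5 and 62.3 in the BJ1 libraries and 26.8, 25.4 and 37.1 in the JB6 libraries. Every BJ1 library lay well above every JB6 library, with a log2 difference of 1.09 ± 0.13 (adjusted p = 0.000918). Ndn was read almost wholly from the paternal copy, with a maternal share of 0% in BJ1 and 3.73% in JB6. This level rests on 1 strain difference.

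A230057D06Rik, a noncoding transcript listed as paternally expressed, had the reverse pattern. It was at 25, 28.6, 28 and 31.5 in BJ1 and at 94.6, 97.4 and 72.7 in JB6, over 23 to 31 covered strain differences. The groups were far apart, with a log2 difference of -1.64 ± 0.12 and the smallest adjusted p of any gene tested (8.44e-06). Magel2, a gene whose loss contributes to Prader-Willi and Schaaf-Yang syndromes, was at 3.19, 1.97, 2.83 and 3.28 in BJ1 and at 5.58, 5.08 and 8.3 in JB6. It was also higher in every JB6 library (log2 -1.16 ± 0.29, adjusted p = 0.0337), with a mean of 23 read bases, near the floor of 20.

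The other genes of the region were added after their values were seen. Ipw, a noncoding transcript of the region, was at 23.5, 29, 26.5 and 31.9 in BJ1 and at 46.5, 54 and 43.4 in JB6 (log2 -0.80 ± 0.13, adjusted p = 0.00675). Its maternal share was 0% in BJ1 and 66.5% in JB6, so in both crosses most of its read bases carried the JF1 base. The feature shared by Snrpn and Snurf, which rests on 1 strain difference, was also higher in JB6 (log2 -0.54 ± 0.11, adjusted p = 0.0198). Snrpn itself, a small nuclear ribonucleoprotein gene, overlapped between the groups, at 149 to 162 in BJ1 and 155 to 219.7 in JB6 (log2 -0.22 ± 0.10, adjusted p = 0.242). Mkrn3 had a log2 difference of 0.45 (adjusted p = 0.276) and D7Ertd715e one of 0.02 (adjusted p = 0.965). Ube3a, the ubiquitin ligase gene lost in Angelman syndrome, had a log2 difference of 0.45 (adjusted p = 0.149) and a maternal share of 75.6% in BJ1 and 69.2% in JB6. Overlapping transcripts of this region can share sites, so the split of read bases between them is uncertain.

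Other paternally expressed genes also split in direction. Kcnq1ot1, a long noncoding RNA that silences its neighbours on the paternal chromosome 7, was at 18.6, 23.6, 21.3 and 26 in BJ1 and at 10.9, 10.3 and 14.6 in JB6. Its log2 difference was 0.89 ± 0.17 (adjusted p = 0.0136). With an offset for transcript length and GC content, described below, it was 0.55 and not called (adjusted p = 0.169). Plagl1, a zinc finger transcription factor on chromosome 10, was at 116, 113, 123 and 125 in BJ1 and at 72.1, 104 and 77.6 in JB6 (log2 0.49 ± 0.11, adjusted p = 0.0265). Peg13, a noncoding RNA within the Trappc9 gene on chromosome 15, was at 721, 749, 706 and 579 in BJ1 and at 534, 535 and 543 in JB6. These values did not overlap either, although BJ1 replicate 4 lay close to the JB6 libraries (log2 0.36 ± 0.08, adjusted p = 0.0283). Zdbf2, a gene on chromosome 1 imprinted from an early embryonic transcript, was at 13.1, 12, 11.5 and 15.7 in BJ1 and at 18.9, 20.1 and 25.1 in JB6. It was the third called paternal gene higher in JB6 (log2 -0.71 ± 0.16, adjusted p = 0.0248).

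Of the maternally expressed genes, Mirg differed most. Mirg is a noncoding RNA at the end of the Meg3 cluster on chromosome 12 and hosts many microRNAs. It was at 23.1, 28.6, 21.1 and 23.4 in BJ1 and at 47.2, 41.5 and 58.9 in JB6, with a log2 difference of -1.04 ± 0.14 (adjusted p = 0.00216). All of its read bases in BJ1 and 99.3% of those in JB6 were maternal. Rian, from the same cluster, also did not overlap, at 1098 to 1334 in BJ1 and 1335 to 1719 in JB6, but missed the threshold (log2 -0.33 ± 0.09, adjusted p = 0.0517). Meg3 itself, at 2308 to 2727 and 2551 to 3342, overlapped (log2 -0.20 ± 0.09, adjusted p = 0.214).

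Grb10 and Dcn were the other maternal genes called, and both were read from both alleles in P0 cortex. Grb10 encodes an adaptor that restrains insulin and growth factor signalling, and its maternal share was 72.5% in BJ1 and 74.3% in JB6. It was at 68.9, 55.2, 55 and 49 in BJ1 and at 75.7, 75.4 and 83.3 in JB6 (log2 -0.45 ± 0.11, adjusted p = 0.0321). Dcn encodes decorin, a matrix proteoglycan of fibroblasts, and its maternal share was 58.5% and 50.5%. It was at 23.8, 20.5, 15.2 and 15.7 in BJ1 and at 30.2, 42.8 and 28.1 in JB6 (log2 -0.83 ± 0.18, adjusted p = 0.0254). Dcn is also on the list of meningeal and fibroblast markers. Of the 11 tested genes of that list 10 had a log2 difference below 0. Of the 11, 3 were called (27.3%, against 4.78% of all genes tested), Dcn and Islr higher in JB6 and Fn1 higher in BJ1. The log2 difference was -0.85 ± 0.20 for Islr and 0.40 ± 0.10 for Fn1. Without BJ1 replicate 2, none of the 11 was called. The summed level of the list was 517 to 898 in BJ1 and 907 to 1041 in JB6. No marker of the list with a row was at 0 in all libraries, and the part of these cells in the Dcn result was not tested.

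The imprinted genes with the highest read-base levels, which also depend on the number of strain differences, showed no called difference apart from Peg13. Nnat, which encodes the neuronatin membrane protein of developing neurons, was at 3425 to 3822 in BJ1 and 3242 to 4145 in JB6 (log2 -0.01 ± 0.08, adjusted p = 0.948). Inpp5f, which encodes a phosphoinositide phosphatase, had a log2 difference of -0.13 ± 0.09, and Gnas, which encodes the stimulatory G protein subunit, one of -0.05 ± 0.08. Igf2, the fetal growth factor gene that is read from both copies in some brain-associated cells, ranged from 53.6 to 153 within BJ1 alone, and at 122 to 143 in JB6 did not differ beyond that spread (adjusted p = 0.497). Its reciprocally imprinted neighbour H19 was at 38.9 to 69.1 in BJ1 and 48.6 to 89.8 in JB6 (adjusted p = 0.268). Cdkn1c, a cell cycle inhibitor, was at 19.7 to 29.5 and 18.7 to 29.4 (log2 0.01 ± 0.17). Peg3, Usp29, Peg10, Sgce and Mest, all paternally expressed, had log2 differences from -0.55 for Mest to 0.24 for Peg3, none called.

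**Figure D2:**
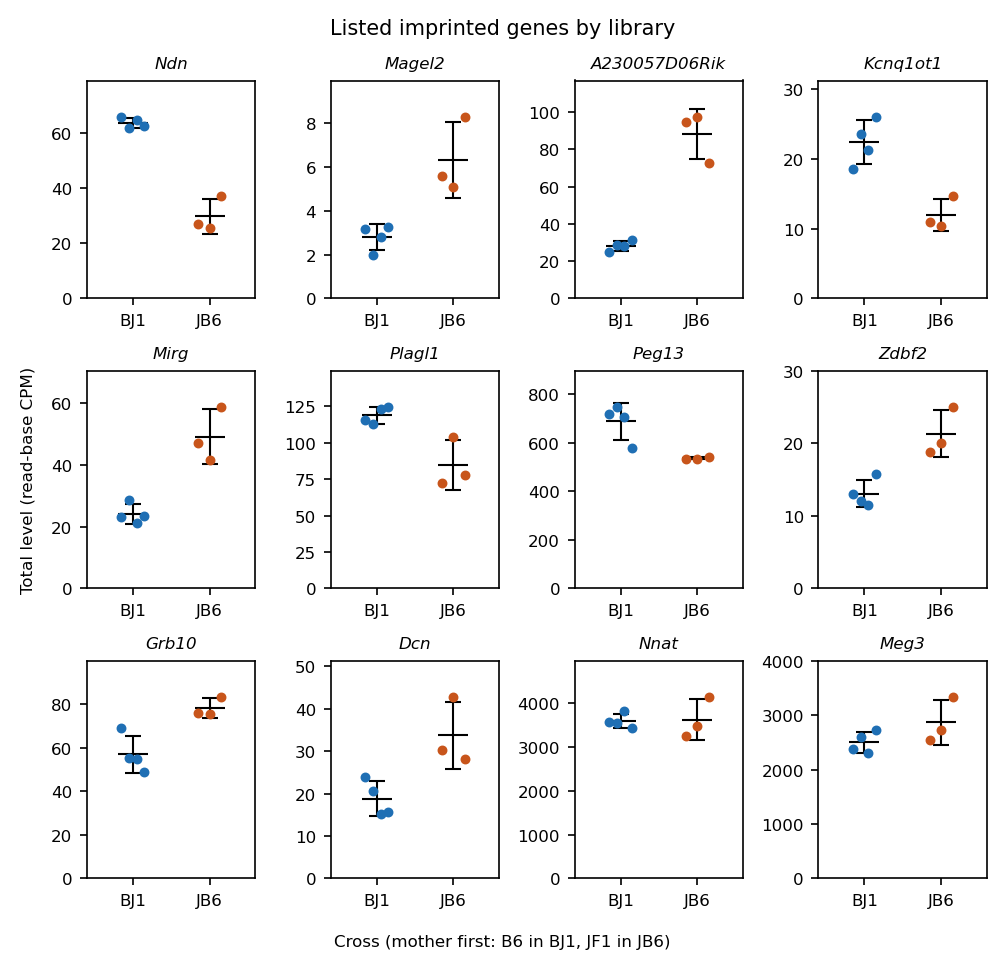
Total level (read-base CPM, axis from 0) of 12 listed imprinted genes in each P0 library of the BJ1 and JB6 crosses. Points are libraries, and bars are the mean ± SD over 4 BJ1 or 3 JB6 libraries. Ndn, Kcnq1ot1, Plagl1 and Peg13 lie higher in BJ1, and Magel2, A230057D06Rik, Mirg, Zdbf2, Grb10 and Dcn lie higher in JB6. Nnat and Meg3 overlap.

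Most called genes were read from both alleles. Of the 497, 484 had a maternal share between 20% and 80% in both crosses. The other 13 were the 8 listed imprinted genes read almost wholly from the listed allele, together with Ipw, the feature shared by Snrpn and Snurf, 6330406I15Rik, S100b and Zfp937.

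Genes higher in BJ1 outside the lists were led by Egr1, the transcription factor of the immediate early response to neuronal activity. Egr1 was at 26.8, 30.4, 33.2 and 30.6 in BJ1 and at 10.1, 13.4 and 14.5 in JB6. All BJ1 libraries exceeded all JB6 libraries (log2 1.24 ± 0.15, adjusted p = 0.000935). Nr4a3, an orphan nuclear receptor of the same response, was at 11.2, 18.3, 19.8 and 12.7 in BJ1 and at 6.43, 7.8 and 7.97 in JB6 (log2 1.05 ± 0.22, adjusted p = 0.0197). Fosl2, a partner of Jun proteins, was also higher in BJ1 (log2 0.34 ± 0.08, adjusted p = 0.0336). In all, 3 of 11 tested immediate early genes were called (27.3%, against 4.78% of all genes tested), all higher in BJ1. The median over the list was 0.32. Without BJ1 replicate 2 only Egr1 of this list was called.

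Flt1, Vwf, Eng, Heg1 and Unc5b were higher in BJ1, and of these Flt1 alone is on the list of vascular markers. Flt1, a receptor that binds vascular endothelial growth factor, was at 29, 32.7, 29.1 and 26.2 in BJ1 and at 13.7, 13.6 and 11.2 in JB6 (log2 1.19 ± 0.14, adjusted p = 0.000935). Vwf, which encodes the clotting protein von Willebrand factor of endothelial cells, was at 37.1, 40.4, 35.2 and 24.7 in BJ1 and at 18.4, 19.8 and 12 in JB6 (log2 1.05 ± 0.19). Eng, an endothelial coreceptor for transforming growth factor beta, had a log2 difference of 0.75 ± 0.12. Heg1, a membrane protein that stabilises endothelial junctions, had one of 0.88 ± 0.14, and Unc5b, a netrin receptor of vessels and neurons, one of 0.70 ± 0.12. Of 12 tested vascular markers, 2 were called (16.7%, against 4.78% of all genes tested) and 8 had an unadjusted p below 0.05. Flt1 was called higher in BJ1 and Vtn, which encodes the adhesive protein vitronectin, was called higher in JB6 (log2 -0.78 ± 0.17), with a median of 0.19. The summed level of the vascular list overlapped, at 302 to 380.5 in BJ1 and 266 to 317 in JB6, and no marker of the list with a row was at 0. In bulk tissue, fewer cells of a type and less RNA per cell cannot be told apart.

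Slc7a5, Slc7a1, Fasn, Arrdc3 and Tet3 were among the genes called whichever library was left out. Slc7a5, a carrier of large neutral amino acids, was at 289, 295, 289 and 239.5 in BJ1 and at 175, 153 and 176 in JB6 (log2 0.73 ± 0.09, adjusted p = 0.000935). Slc7a1, a carrier of cationic amino acids, had a log2 difference of 0.62 ± 0.08 (adjusted p = 0.00217). The other 3 tested members of the Slc7 family, a list made after the values were seen, were not called, with values of -0.34 to -0.05. Fasn, the fatty acid synthase gene, differed by 0.64 ± 0.09 (adjusted p = 0.00251), Arrdc3, an arrestin-domain regulator of receptor trafficking, by 0.78 ± 0.10 (adjusted p = 0.00213), and Tet3, a DNA demethylation enzyme gene, by 0.58 ± 0.08 (adjusted p = 0.00251).

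Fat1 was the adhesion gene with the smallest adjusted p. Fat1, a giant cadherin of cell polarity, was at 320.4, 355, 374 and 318 in BJ1 and at 215, 218 and 183 in JB6 (log2 0.74 ± 0.09, adjusted p = 0.000918). Among the teneurins, Fat and Dchs cadherins and Celsr receptors, a list made after the values were seen, 7 of 10 tested were called. This was 70%, against 4.78% of all genes tested, but a list picked for its values cannot show an enrichment. All 7 were higher in BJ1, and the median over the list was 0.52. Without BJ1 replicate 2, 1 gene of the list was called. The teneurin gene Odz2 had a log2 difference of 1.09 ± 0.20 (adjusted p = 0.0119) and Celsr1, a planar polarity receptor gene, one of 0.86 ± 0.19 (adjusted p = 0.0208). The gamma protocadherins, which give neurons a surface identity, were also listed after their values were seen. Of 21 tested, 8 were called higher in BJ1 (38.1%) and none higher in JB6, with a median of 0.47. Without BJ1 replicate 2, 1 of the 21 was called. Pcdhgc3 had a log2 difference of 0.60 ± 0.08 (adjusted p = 0.00213) and Pcdhgb7 one of 0.74 ± 0.15 (adjusted p = 0.0155). These genes are near-identical copies in part and share their last exons, so their split of read bases is uncertain.

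The cross difference moved with transcript length, and these adhesion genes have long transcripts. Genes were put into 5 bins of equal size by length. The median log2 difference was -0.09 in the bin with the shortest transcripts, and it was -0.04, 0.00, 0.03 and 0.10 in the bins of rising length. In the shortest bin 11 genes were called higher in BJ1 and 52 higher in JB6, and in the longest bin 178 and 13. The median transcript length was 5840 bases for genes called higher in BJ1, 2976 for those higher in JB6 and 3709 for all with a length. GC content moved with the cross as well, from a median difference of -0.05 in the bin with the lowest GC to 0.06 in the bin with the highest. With an offset for length and GC content, chosen after seeing the data, 274 genes were called, 152 higher in BJ1 and 122 higher in JB6, and 215 of the 497 were among them. All 497 kept their direction, with a median size of 0.35. Of the genes named here, Ctsh, Fosl2, Fn1, Irs1, Lhx2, Lhx6, S100b, Stmn2, Tnc, Tpi1, Celsr1, Kif21b and Zfp937 lost their call with the offset. So did Kcnq1ot1, Cox6c, Mrpl42 and Atp5h, and adjusted p ran from 0.0618 for Lhx6 to 0.622 for Atp5h. The teneurin and cadherin list then had 3 called and a median of 0.31, and the gamma protocadherins 5 called and a median of 0.41. Whether length, RNA quality or library preparation had a part in these differences was not tested.

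**Figure D3:**
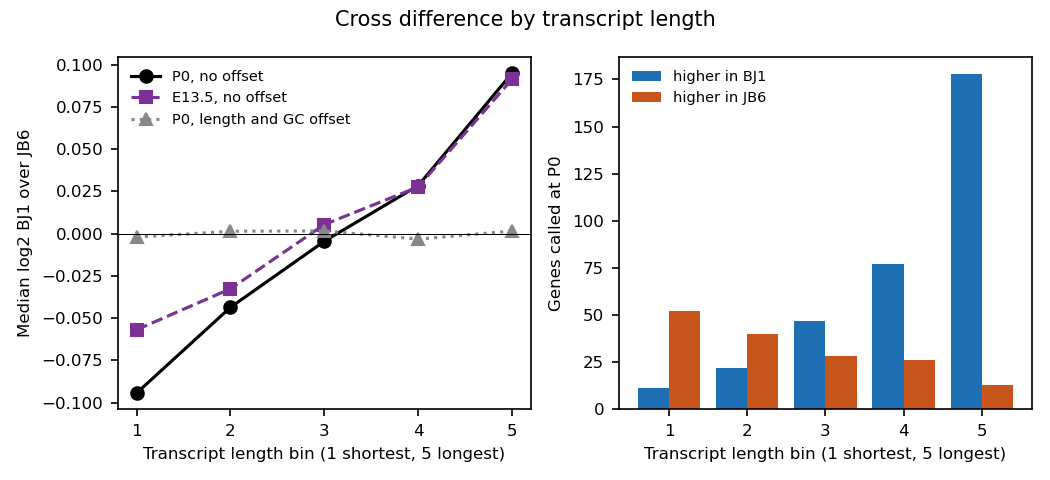
Left, median log2 difference of BJ1 over JB6 for each of 5 bins of transcript length, at P0 (black), at E13.5 (purple) and at P0 with an offset for length and GC content (grey). Right, number of genes called at P0 in each bin, higher in BJ1 (blue) and higher in JB6 (orange). The P0 median rises from -0.09 in the shortest bin to 0.10 in the longest, and calls higher in BJ1 rise from 11 to 178.

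Among genes of cell identity, calls went in both directions. Eomes, a transcription factor of intermediate cortical progenitors, was at 26.2, 31, 29.3 and 24.7 in BJ1 and at 15.2, 17.9 and 10.4 in JB6 (log2 0.94 ± 0.17, adjusted p = 0.0114). Lhx2, a cortical selector gene (0.43 ± 0.10), and Tnc, a matrix gene of radial glia (0.40 ± 0.08), were also higher in BJ1. Fabp7, a lipid-binding protein of radial glia, was at 270.1, 256, 242 and 312 in BJ1 and at 381, 378 and 476 in JB6 (log2 -0.61 ± 0.10, adjusted p = 0.00791). Hes5, a Notch target that maintains progenitors, was likewise higher in JB6 (-0.83 ± 0.16, adjusted p = 0.0141). So 5 of 17 tested dorsal progenitor markers were called (29.4%, against 4.78% of all genes tested). Of these, 3 were higher in BJ1 and 2 higher in JB6, and the median over the list was 0.08. Without BJ1 replicate 2, none of the 17 was called. None of 25 tested cell cycle genes was called by edgeR, DESeq2 or limma-voom, with 4 at an unadjusted p below 0.05.

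Called neuronal markers went in both directions. Reln, which encodes the layering signal reelin of Cajal-Retzius cells and some interneurons, was at 505, 588, 621 and 574 in BJ1 and at 372, 401 and 329 in JB6 (log2 0.64 ± 0.09, adjusted p = 0.00217). Lhx6, a transcription factor of interneurons from the medial ganglionic eminence, was also higher in BJ1 (0.36 ± 0.08, adjusted p = 0.0222). They were the 2 called of 13 tested interneuron markers (15.4%, against 4.78% of all genes tested), whose summed level was 1423 to 1558 in BJ1 and 1237 to 1388 in JB6. Rorb, a nuclear receptor of layer 4, was at 43.8, 35.8, 33.7 and 25.8 in BJ1 and at 56, 62 and 68.2 in JB6 (log2 -0.83 ± 0.14, adjusted p = 0.00934). Rorb and Lhx2 were the 2 called of 12 tested upper layer markers (16.7%), in opposite directions. Zfpm2 was the only call among 15 tested deep layer markers (6.67%, log2 0.48 ± 0.11), and Stmn2, a microtubule regulator of growing axons, the only call among 18 tested neuronal maturation markers (5.56%, log2 -0.26 ± 0.06). Of the markers in these neuronal lists, Reln alone was called without BJ1 replicate 2. C1ql3, which encodes a secreted synaptic protein, was at 12.5 to 14.6 in BJ1 and 22.5 to 43 in JB6 (log2 -1.22 ± 0.19, adjusted p = 0.00762).

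The called markers of astrocytes and of the oligodendrocyte lineage were all higher in JB6. Gja1, which encodes the gap junction protein of astrocytes, was at 84, 61.6, 72.1 and 74.6 in BJ1 and at 104, 114 and 142 in JB6 (log2 -0.72 ± 0.12, adjusted p = 0.00791). S100b, a calcium-binding protein of glia, was at 3.02 to 4.37 in BJ1 and 6 to 15.6 in JB6 (log2 -1.39 ± 0.33, adjusted p = 0.0321). They were the 2 called of 12 tested astrocyte markers (16.7%, against 4.78% of all genes tested), with a median of -0.22. The summed astrocyte level overlapped, at 1476 to 1803 in BJ1 and 1649 to 2296 in JB6. In the oligodendrocyte lineage 3 of 9 tested markers were called (33.3%, against 4.78% of all genes tested), all higher in JB6. Gpr17, a receptor of differentiating precursors, was at 19.7 to 28.3 in BJ1 and 38.8 to 62.8 in JB6 (log2 -0.99 ± 0.19, adjusted p = 0.0168). Bcas1, a marker of newly formed oligodendrocytes, had a log2 difference of -1.08 ± 0.22, and Cnp, a myelin enzyme gene, one of -0.58 ± 0.15. The median over the oligodendrocyte list was -0.16. JB6 replicate 3 was the highest library for Fabp7, Gja1, S100b, Gpr17, Bcas1 and Cnp. Without BJ1 replicate 2, Gja1 alone of these 6 was called.

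Outside the imprinted lists, the smallest adjusted p was that of the RIKEN transcript A930011O12Rik, at 80.4, 79.5, 89.7 and 72.4 in BJ1 and at 205, 170.3 and 153 in JB6 (log2 -1.13 ± 0.10, adjusted p = 8.96e-05). Lepr, the leptin receptor gene (-0.91 ± 0.22), Ctsh, a lysosomal protease gene (-0.81 ± 0.21), Ppp1r3c, a glycogen-targeting subunit gene (-0.78 ± 0.15), and Mylip, a ubiquitin ligase gene that acts on lipoprotein receptors (-0.75 ± 0.13), were also higher in JB6.

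**Figure D4:**
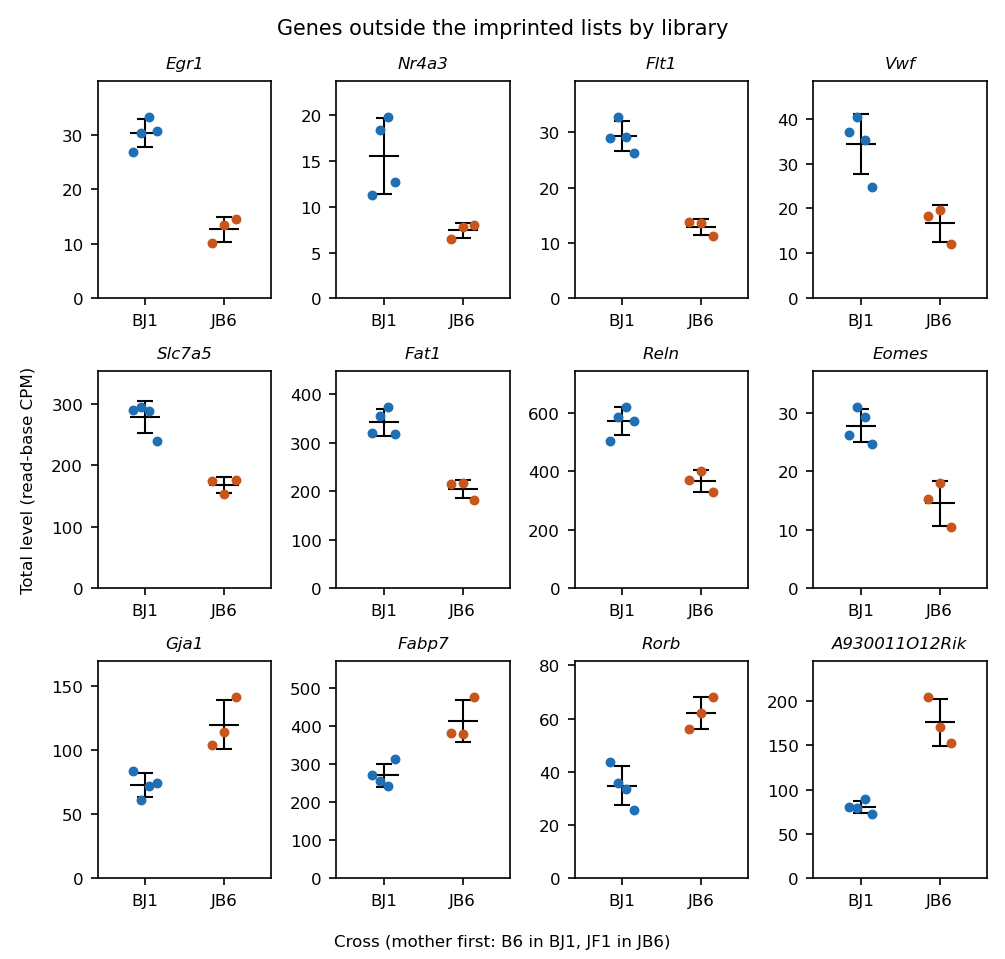
Total level (read-base CPM, axis from 0) of 12 genes outside the imprinted lists in each P0 library of the BJ1 and JB6 crosses. Points are libraries, and bars are the mean ± SD over 4 BJ1 or 3 JB6 libraries. The first 8 genes, Egr1 to Eomes, lie higher in BJ1, and Gja1, Fabp7, Rorb and A930011O12Rik lie higher in JB6, with no overlap in any.

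Of 52 tested nuclear genes of the respiratory chain, 46 had a log2 difference below 0, with a median of -0.15. Over all 10402 genes tested, 5309 were below 0. The skew was not particular to this list: 43 of 49 tested cytoplasmic ribosomal protein genes and all 9 tested heat shock genes were also below 0. Of the 52, 3 were called (5.77%, against 4.78% of all genes tested), all higher in JB6. Ndufb2, a complex I subunit gene, had a log2 difference of -0.38 ± 0.08 (adjusted p = 0.0182) and Cox6c, a cytochrome oxidase subunit gene, one of -0.41 ± 0.10 (adjusted p = 0.0343). For Atp5h it was -0.26 ± 0.07 (adjusted p = 0.0497). Of 57 tested mitochondrial ribosome genes 54 were below 0, again with a median of -0.15, and Mrpl42 alone was called (1.75%, log2 -0.38 ± 0.10). With the offset for length and GC content these medians were -0.03 and -0.07, and 1 and 0 genes were called. Cox6c (adjusted p = 0.0758), Mrpl42 (adjusted p = 0.121) and Atp5h (log2 -0.07, adjusted p = 0.622) were then not called. Among 19 tested genes of hypoxia and glycolysis 3 were called (15.8%), all higher in JB6, with a median of -0.03 over the list. They were Eno1, an enolase gene (-0.34 ± 0.07), Tpi1, a triose phosphate isomerase gene (-0.34 ± 0.09), and Egln3, an oxygen sensor gene (-0.47 ± 0.11).

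The mitochondrial genome itself comes from the mother and therefore from B6 in BJ1 and from JF1 in JB6. Mitochondrial read bases were 14.9% ± 1.63 (SD, n = 4) of all read bases in BJ1 and 19.1% ± 1.11 (SD, n = 3) in JB6. All 4 BJ1 libraries lay below all 3 JB6 libraries, by 4.22 percentage points on average. The exact two-sided permutation test over 35 regroupings gave p = 0.0571, the smallest p it can give. At E13.5 the difference was 0.78 points in the other direction (exact permutation p = 0.5).

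Lists of hormone and stress responses held few calls. At the 4.78% called over all genes tested, these and the other short lists below would hold few or none. By edgeR and limma-voom none of 10 tested glucocorticoid-responsive, 10 thyroid hormone-responsive, 5 interferon response or 9 heat shock genes was called, with 2, 3, 1 and 2 at an unadjusted p below 0.05 in edgeR. DESeq2 called 0, 1, 1 and 1 of them. The insulin-like growth factor pathway had Irs1, an insulin receptor substrate gene, called higher in BJ1 (0.45 ± 0.12, adjusted p = 0.0491) among 23 tested (4.35%), with a median of 0.08. Rorb was the only call among 12 tested circadian clock genes (8.33%), and Rplp1 the only one among 49 tested cytoplasmic ribosomal protein genes (2.04%, log2 -0.37 ± 0.08). Of 6 tested olfactory bulb markers, Eomes was called (16.7%). Of the markers of other neighbouring tissues and blood-borne cells, edgeR called none of 13 for striatum, 9 for hippocampus, 8 for microglia, 6 for choroid plexus, 3 for thalamus and 3 for blood. At an unadjusted p below 0.05 there were 4, 3, 1, 0, 0 and 1. DESeq2 called 1 hippocampal and 1 microglial marker and limma-voom none of these. Of the 13 striatal markers 11 had a log2 difference below 0, with a median of -0.40. All 8 microglial markers were below 0, with a median of -0.20. The summed microglial level did not overlap, at 179 to 208 in BJ1 and 219 to 239.5 in JB6.

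At E13.5, in separate libraries of the same crosses, 296 of 9999 genes tested were called (2.96%), 133 higher in BJ1 (1.33%) and 163 higher in JB6 (1.63%). Without JB6 replicate 2 no gene was called there by edgeR, with 1481 at an unadjusted p below 0.05. Of the 473 P0-called genes tested at E13.5, 353 had the same sign (74.6%), compared with 58.2% of all 9564 genes tested at both stages. The transcript length pattern was similar at both stages, with E13.5 medians from -0.06 in the shortest bin to 0.09 in the longest. Genes called at both stages numbered 41. Of these, 37 had the same direction, which is 7.82% of the 473 P0 calls and 13.3% of the 279 E13.5 calls tested at both stages. There were 29 higher in BJ1 and 8 higher in JB6 at both stages, and 4 had opposite directions, among them Vwf.

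The imprinted genes called at both stages were Ndn, A230057D06Rik and Grb10. Ndn had a log2 difference of 1.08 (adjusted p = 0.017), A230057D06Rik one of -1.73 (adjusted p = 0.0109) and Grb10 one of -0.58 (adjusted p = 0.0227). Each difference lay close to its P0 value. Unlike at P0, Grb10 was read almost wholly from the maternal copy at E13.5, with 99.6% in BJ1 and 99.5% in JB6. The other 7 imprinted genes called at P0 had the same sign at E13.5 without a call, from -1.24 for Dcn (adjusted p = 0.459) to 0.36 for Kcnq1ot1 (adjusted p = 0.274). Peg10, a retrotransposon-derived gene, was called at E13.5 (-0.75, adjusted p = 0.0318) and not at P0 (-0.37, adjusted p = 0.248), and the test of the difference between stages gave an adjusted p of 0.508. Of the 55 imprinted genes tested at E13.5, none had a called difference between the stages. Outside the lists, Gja1 was higher in JB6 at both stages (-0.72 and -0.71). Eomes (0.94 and 0.44), Srrm4, a neuronal splicing regulator (0.54 and 0.69), Sez6, a synaptic membrane protein gene (0.44 and 0.87), and Kif21b, a kinesin gene (0.39 and 0.72), were higher in BJ1 at both.

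The difference between stages was tested directly for 9564 genes, and 144 were called (1.51%), 43 of them among the 473 P0 calls. In the libraries labelled female only, 34 were called. Flt1, Vwf, Eng and Unc5b were among the 144 called with all libraries. Flt1 went from 1.19 at P0 to -0.89 at E13.5, Vwf from 1.05 to -1.61, Eng from 0.75 to -0.97 and Unc5b from 0.70 to -0.43, with adjusted p of the difference of 0.00943, 0.00374, 0.0298 and 0.0221. Heg1 had the same sign at both stages (0.88 and 0.41, adjusted p of the difference = 0.239). At E13.5 the summed level of the vascular list was 135 to 252 in BJ1 and 340.4 to 566 in JB6, and that of the blood list was 1143 to 3544 and 4953 to 8658. The meningeal list there was at 278 to 495 in BJ1 and 769 to 1429 in JB6, and the choroid plexus list at 17.1 to 258 and 465 to 639. At E13.5 the summed levels of these lists did not overlap between crosses, and their part in the stage difference was not tested. Slc7a5 also differed between stages (0.73 and -0.22, adjusted p = 0.00374), as did Fabp7 in the other direction (-0.61 and 0.40, adjusted p = 0.0192).

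**Figure D5:**
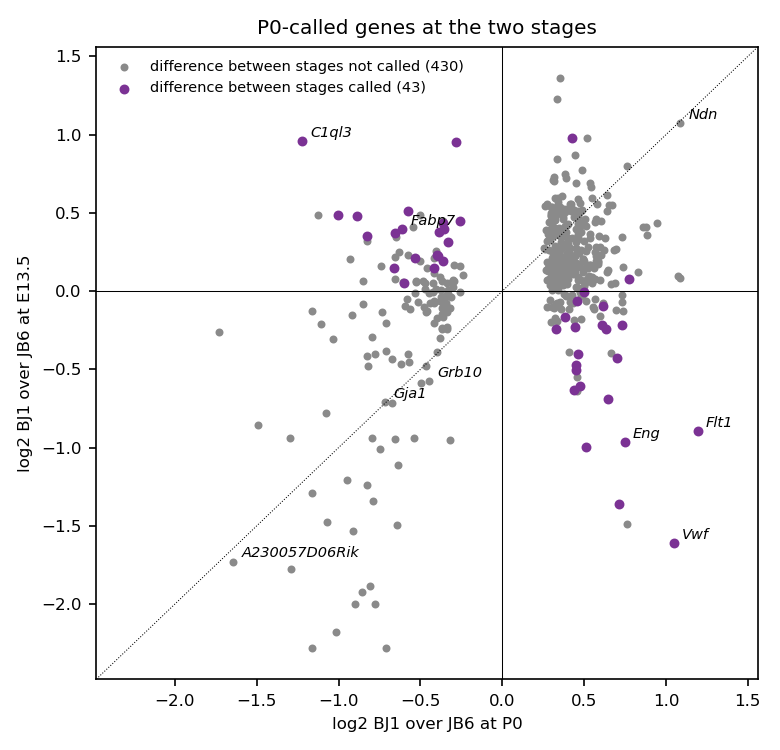
Log2 difference of BJ1 over JB6 at P0 against that at E13.5 for the 473 P0-called genes tested at both stages. The dotted line marks equal values. Purple marks the 43 genes with a called difference between stages, grey the other 430. Ndn and A230057D06Rik lie near the dotted line, whereas Flt1, Vwf and Eng are above 0 at P0 and below 0 at E13.5.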

How the data were processed

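Total RNA was extracted with Trizol and made into stranded polyadenylated libraries, per the labels' protocols. Tools listed in the submitters' processing notes are edgeR, HTSeq, Novoalign and CASAVA 1.8.2, with mm9 as the build. The deposited counts are raw: for each feature and library, the authors summed read bases carrying the maternal or paternal allele at strain differences, taken with SAMtools mpileup 0.1.18 per the deposited description. A read over several strain differences adds several read bases, so read bases are not independent molecules. An alternative with counts divided by 3 addresses this. The authors' description starts from 12508968 strain differences and gives 6252 as removed, while its summary gives 37985, so that number is uncertain. The authors gave sites that lie in several genes a joined feature name.

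Here both alleles were summed. Autosomal features averaging 20 or more read bases were fitted with edgeR 4.0.16 in R 4.3.3 (robust quasi-likelihood, TMM, library size from autosomal features), with cross as the only term and Benjamini-Hochberg adjustment over all tested. Alternatives used DESeq2 1.42.0 and limma 3.58.1, and the method was tested on simulated data. Levels are scaled by TMM. Standard errors are approximate: the absolute log2 difference over the root of its F value. The E13.5 table was fitted alone, and stage differences came from a joint fit. Transcript lengths and GC content came from the longest GENCODE transcript of each symbol on GRCm38, matched for 99.4% of tested features. No coordinates were used, since that build differs from the files'. Python 3.11.15, numpy 2.4.6, pandas 2.3.3, scipy 1.17.1 and matplotlib 3.10.9 did the rest.

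The members, gene lists and tests were chosen with earlier results of these data known. Named genes were every called imprinted gene and the 12 imprinted genes with the highest read-base level. Also named were up to 12 called genes per direction by size, averaging 100 or more read bases and without overlap. The rule further took up to 4 called genes per list and direction. Further names were added after values were seen: the genes called in all 7 fits that left out a library, the Prader-Willi region, other well-known imprinted genes, genes called at both stages, and members of the 3 gene families. Some genes named by the rule are given only within counts.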

Additional observations from a re-analysis of the deposited data

Results flagged for a closer look

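Some named genes had a cross difference that changed between P0 and E13.5 in the joint edgeR test with Benjamini-Hochberg adjustment. As P0 minus E13.5 on the log2 scale, it was 2.64 for Vwf, 2.07 for Flt1, 1.70 for Eng, 1.11 for Unc5b, 0.93 for Slc7a5 and 0.68 for Arrdc3. It was -2.18 for C1ql3, -1.03 for Fabp7 and -0.72 for Stmn2. The summed levels of the marker lists of vessels, blood, meninges and choroid plexus did not overlap between crosses at E13.5, though single markers such as Flt1 did. The labels name the tissue differently at the 2 stages.

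Some genes had a BJ1 library far from the other 3 at P0, measured by its gap over the range of the group. Fn1 was at 244.5 and Slc7a5 at 239.5 in BJ1 replicate 4, below the others, and Rab27b was at 12.8 in BJ1 replicate 3, also below the others. Chance flags about 1 in 20 groups.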

How the results depend on the processing

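The 497 calls at P0 (336 higher in BJ1, 161 higher in JB6) ranged from 22 to 692 when each library was left out in turn, from 15 to 475 for those higher in BJ1 and from 7 to 217 for those higher in JB6. The low end came without BJ1 replicate 2 (22) and without BJ1 replicate 3 (44), and counts were 302, 292 and 324 without JB6 replicates 1, 2 and 3. Without BJ1 replicate 1 or 4 it was 371 and 692. The cause was not tested. The joint fit with E13.5 called 245 (157 and 88), and the offset for length and GC content, chosen after seeing the data, 274 (152 and 122). DESeq2 called 571, limma-voom 493 and counts divided by 3 gave 445. Same-numbered P0 libraries did not deviate together (correlations -0.07, 0.03 and -0.06), and with a replicate block 430 genes were called, 346 of them among the 497.

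The maternal list had 3 calls (1 to 6 with a library left out) and the paternal list 7 (2 to 7, and 4 among genes averaging 100 or more read bases). Of the uncalled genes, Nnat (log2 -0.01) turned sign with the replicate block (0.017) and with the length and GC offset (0.014), and ranged from -0.0853 to 0.081 with a library left out. Klhdc10 (0.05) did so with the offset (-0.00467) and ranged from -0.0051 to 0.0719, and Gnas (-0.05) ranged from -0.143 to 0.00842. None of the 59 called genes named by the rule changed direction under any alternative run. With a library left out this was nearly fixed in advance, since the genes were picked for a difference in the same libraries. With the offset, Kcnq1ot1 was not called (0.55, adjusted p = 0.169).

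At E13.5 the 296 calls became 581 with no filter on low counts, 492 with counts divided by 3, 487 with a replicate block and 0 to 527 with a library left out. The 144 stage differences became 34 in libraries labelled female only. The mitochondrial difference at P0 ranged from -3.54 to -4.84 points. Genes near the floor of 20 read bases carry the largest counting error.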
